A study of Mus musculus with 3 samples.

Results

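Cadherins are calcium-dependent adhesion proteins that join the membranes of neighbouring cells, and protocadherins are relatives that are expressed mainly in the nervous system. The genes described here are 22 cadherin genes of the classical, GPI-anchored, kidney-intestinal and sensory-link kinds and 11 protocadherin genes that lie outside the clustered Pcdha, Pcdhb and Pcdhg arrays. They were chosen by name: every non-control probe whose RefSeq accession, or whose symbol in the authors' deposited table, belongs to 1 of these 33 genes was taken. All 33 genes had at least 1 such probe, 55 probes in all of the 55681 non-control probes on the array.

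The study measured RNA from the dorsal cortex of untreated mouse pups at postnatal day 4, in wild-type pups and in pups labelled Brpf1-deficient. Brpf1 encodes a scaffold of histone acetyltransferase complexes. Each of 3 two-colour arrays carried 1 wild-type pup in the Cy3 dye and 1 Brpf1-deficient pup in the Cy5 dye, from 350 ng of total RNA per sample before amplification. The labels give neither the allele, the cells in which Brpf1 was lost nor the litters, so p-values measure only the spread between these 3 arrays. The dyes were never exchanged, and an effect of dye on a probe and an effect of genotype cannot be told apart.

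In the developing cortex, cadherins hold radial glia together at the ventricular surface, guide migrating neurons, and sort axons and synaptic partners. Classical cadherins (types I and II) bind like partners on the next cell through their outermost domain and hold actin through p120-catenins, beta-catenin and alpha-catenins on the inside. The non-clustered protocadherins (delta-1 and delta-2) adhere more weakly, carry other cytoplasmic motifs, and are known for patchy, area-specific and layer-specific expression in the young forebrain.

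Between 57.9% and 61.0% of spots were well above background per channel and array, and no spot was saturated. The ratios of pairs of arrays correlated at r = 0.566 to 0.703 across genes, which are not independent replicates. Brpf1 itself was brighter in Cy5, the channel labelled Brpf1-deficient, with a log2 ratio of Cy5 over Cy3 of 0.77 ± 0.17 (SD, n = 3 arrays; limma adjusted p = 0.00446), which goes against the label. The ratio was 0.63, 0.73 and 0.96 on arrays 1, 2 and 3. Where its probe lies in relation to any deleted part is not given, and the reason for the difference was not tested. The authors' deposited table gives Brpf1 a log2 fold change of -0.80, and all 37 member probes that passed the filter and stand in that table have the sign opposite to the one found here. This was not particular to the members. Over the whole array, all 5557 probes that were called singly and stand in that table have the opposite sign there. Directions are therefore those of the channels, and the genotype behind each was left unsettled: a negative value is brighter in Cy3 (labelled wild type), a positive value brighter in Cy5 (labelled Brpf1-deficient). RNA came from bulk tissue, so fewer cells of a type and less RNA per cell cannot be told apart.

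Of the 33 genes, 29 passed the filter on dim probes and were tested, each through its brightest probe. The log2 ratio of 11 (37.9%) passed an adjusted p of 0.05 in limma, as did 17.1% of all 23232 genes tested. Brighter in Cy3 were 7 (Cdh2, Cdh4, Cdh7, Cdh13, Pcdh7, Pcdh8 and Pcdh19; 24.1% of the 29, against 9.17% of all genes). Brighter in Cy5 were 4 (Cdh6, Cdh9, Cdh15 and Pcdh12; 13.8%, against 7.97% of all genes). Every mean difference was below 2-fold. All genes tested were also split into 20 bins by intensity. The median log2 ratio of the gene's bin was -0.070 for Cdh4 and Pcdh19, -0.055 for Cdh13 and -0.036 for Pcdh8. It was -0.022 for Pcdh7, -0.018 for Cdh7 and 0.11 for Cdh2. With the bins centred after loess, 6 members were brighter in Cy3 and 5 in Cy5. The median log2 ratio was -0.10 over the 29 members and -0.0064 over all genes, and the median size of a called ratio was 0.43 among members and 0.38 among all genes. The members' median moved between arrays, from -0.19 on array 1 to -0.11 on array 2 and -0.0084 on array 3. Taken singly, 46 of the 55 member probes passed the filter; 11 were brighter in Cy3 and 4 in Cy5, against 9.37% and 7.48% of all probes tested so (16.8% in either direction). In the authors' deposited table no spot passes an adjusted p of 0.05: the smallest adjusted p of any member probe there is 0.240.

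**Figure D1:**
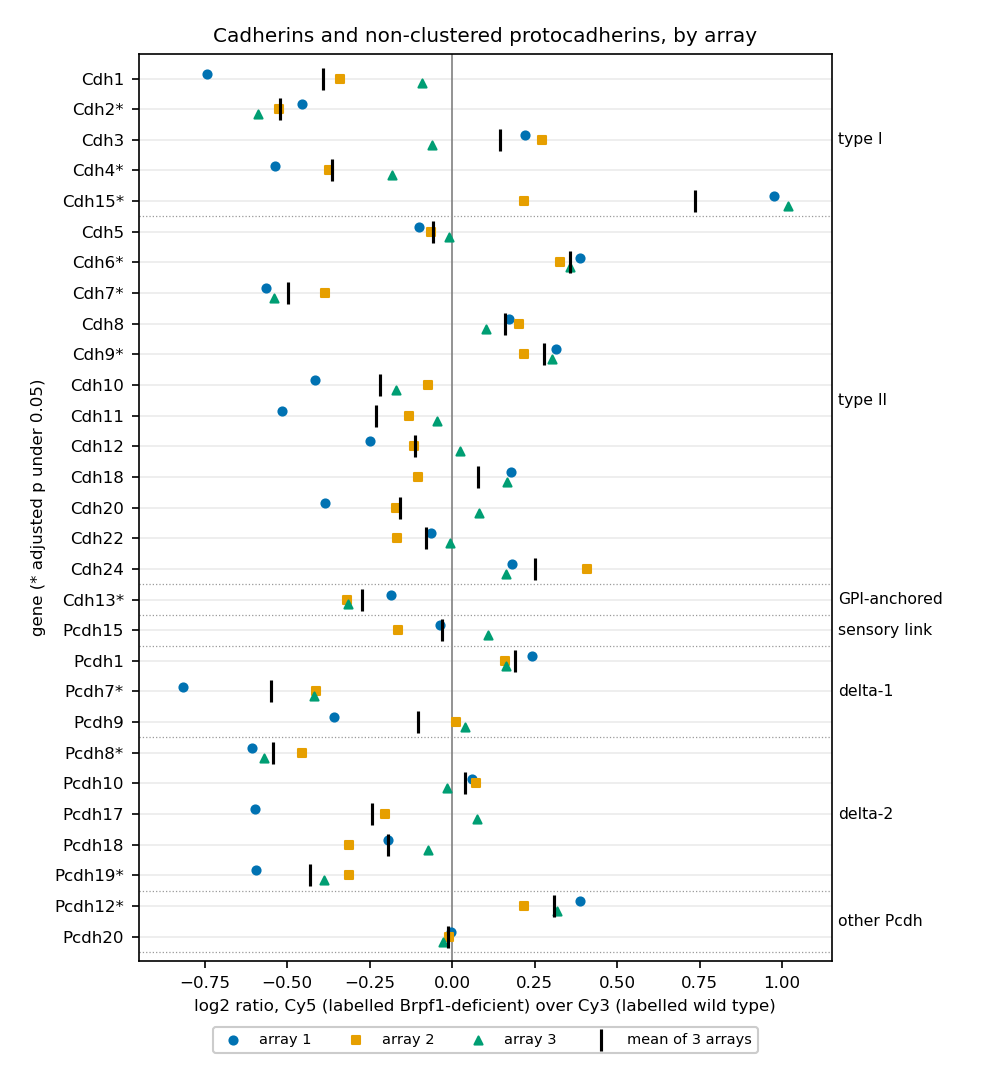
The log2 ratio of Cy5 (labelled Brpf1-deficient) over Cy3 (labelled wild type) is plotted on the horizontal axis for the 29 genes tested, 1 row a gene, ordered by kind; circles, squares and triangles are arrays 1, 2 and 3, the black tick is their mean, and an asterisk marks an adjusted p under 0.05. Cdh2, Cdh7 and Pcdh8 lie left of 0 with the 3 arrays close together, Cdh6 and Cdh9 lie right of it, and Cdh15 is far right on arrays 1 and 3 only.

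Start-site regions are shown for 4 genes, those with the largest differences among the 7 called genes whose windows were used. These 4 span both directions and both families. No window was used for Cdh2, whose log2 ratio (-0.52) was further from 0 than that of Cdh7 (-0.50). Each is 300 bases on the gene's own strand from the RefSeq promoter table (GRCm38.p6), 250 bases before the start site and 50 after it, in lower case with matches to the searched motifs in capitals. Cdh15 is at chr8:122848124-122848423 (plus strand), Cdh7 at chr1:109982650-109982949 (plus strand, 1 of 3 windows in the table), Pcdh7 at chr5:57717831-57718130 (plus strand) and Pcdh8 at chr14:79771263-79771562 (minus strand).
Cdh15: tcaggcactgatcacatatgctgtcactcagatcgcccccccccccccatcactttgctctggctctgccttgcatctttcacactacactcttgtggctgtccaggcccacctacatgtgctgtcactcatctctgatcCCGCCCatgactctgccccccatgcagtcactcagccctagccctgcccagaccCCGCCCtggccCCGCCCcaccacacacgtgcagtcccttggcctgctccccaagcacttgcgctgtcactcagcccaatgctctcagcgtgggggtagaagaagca
Cdh7: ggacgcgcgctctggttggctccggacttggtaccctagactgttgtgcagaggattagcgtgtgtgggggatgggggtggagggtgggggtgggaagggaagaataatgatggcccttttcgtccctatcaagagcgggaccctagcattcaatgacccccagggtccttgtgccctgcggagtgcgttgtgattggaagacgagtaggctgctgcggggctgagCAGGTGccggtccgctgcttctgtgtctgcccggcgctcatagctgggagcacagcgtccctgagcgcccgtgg
Pcdh7: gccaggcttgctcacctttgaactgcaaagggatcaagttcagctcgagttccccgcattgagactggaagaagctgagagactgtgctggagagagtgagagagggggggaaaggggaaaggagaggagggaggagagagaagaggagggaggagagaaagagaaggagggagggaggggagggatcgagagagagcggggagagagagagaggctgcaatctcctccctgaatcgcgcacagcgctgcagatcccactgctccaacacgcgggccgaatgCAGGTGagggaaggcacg
Pcdh8: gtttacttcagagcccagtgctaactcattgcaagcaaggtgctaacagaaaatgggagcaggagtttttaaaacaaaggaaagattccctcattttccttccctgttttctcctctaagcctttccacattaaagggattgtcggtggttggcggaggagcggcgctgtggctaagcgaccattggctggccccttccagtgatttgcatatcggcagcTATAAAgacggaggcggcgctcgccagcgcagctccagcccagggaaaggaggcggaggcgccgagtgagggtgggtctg
The capitals mark 3 motifs, each searched on both strands: CAGGTG, which reads CACCTG on the other strand, is the E-box that repressors of the Snail and Zeb families bind in the Cdh1 promoter. GGGCGG, with CCGCCC as its complement, is the GC box, and TATAAA, with TTTATA as its complement, is the TATA box. No matches overlapped in these windows. Cdh15, brighter in Cy5, holds 3 GC boxes on the opposite strand, beginning 110, 56 and 45 bases before its start. Cdh7 and Pcdh7, both brighter in Cy3, hold an E-box each: that of Cdh7 begins 24 bases before the start, and that of Pcdh7 begins at base 283 of the window, past the start. Pcdh8, also brighter in Cy3, holds a TATA box beginning 30 bases before its start. Of all 32851 windows in the table, 20.2% hold the E-box, 35.7% the GC box and 13.6% the TATA box. Of the 24 windows found for 21 members, 5, 9 and 2 hold them. Member windows had a median GC content of 60.5%, against 52.7% over all windows. A match is a description of letters and shows no binding.

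The type I cadherins are the founding members of the family, and all 5 were tested: 2 were brighter in Cy3 (Cdh2 and Cdh4), 1 in Cy5 (Cdh15), and Cdh1 and Cdh3 did not pass. Cdh2, N-cadherin, is the main cadherin of neural precursors and of excitatory synapses. Its log2 intensity was 15.92, 15.96 and 15.99 in Cy3 and 15.46, 15.43 and 15.41 in Cy5 on arrays 1, 2 and 3. All 3 Cy3 values lay above all 3 Cy5 values. The log2 ratio was -0.52 ± 0.07 (SD, n = 3), 1.44-fold, with an adjusted p of 0.00776. A second Cdh2 probe gave -0.39, -0.46 and -0.39, with a mean of -0.41 ± 0.04 and an adjusted p over probes of 0.0141. Both probes were thus lower in Cy5 on every array. Cdh2 is among the brightest twentieth of genes, which as a group had a median ratio of 0.11 after loess, with 68.9% of its genes above 0. With arrays centred on the median in place of loess, the Cdh2 ratio shrank to -0.09 (adjusted p = 0.369; range over 12 alternatives 0.00248 to 0.369).

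Cdh4, R-cadherin, marks subsets of forebrain neurons and retinal axons. Its log2 ratios were -0.54, -0.37 and -0.18, with a mean of -0.36 ± 0.18 and an adjusted p of 0.0334. The 3 Cy3 levels (13.93 to 14.08 on the log2 scale) lay above the 3 Cy5 levels (13.54 to 13.75). The array holds 3 Cdh4 probes: another gave -0.40 ± 0.21 (adjusted p over probes 0.0313) and the dimmest -0.03 ± 0.14 (0.777). Array 1 was the lowest on each of these probes. The call was lost without array 1 (-0.28, adjusted p = 0.0622), with the mean of the 3 probes (-0.27, 0.0572), with median centring (-0.16, 0.317) and with the scanner's processed signals (-0.31, 0.0883), in a range of 0.0281 to 0.317 over 12 alternatives.

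Cdh15, M-cadherin, is best known from muscle satellite cells and from cerebellar granule neurons. Its log2 intensity was 10.08, 10.56 and 9.79 in Cy3 and 11.06, 10.77 and 10.81 in Cy5, so that all Cy5 values lay above all Cy3 values. The log2 ratios were 0.98, 0.22 and 1.02, with a mean of 0.74 ± 0.45, 1.67-fold, and an adjusted p of 0.0244; this was the largest difference among the 29 members and also the largest SD. The Cy3 levels were spread more widely than the Cy5 levels, and array 2, with the smallest ratio, had the highest Cy3 level. Without array 1 the ratio was 0.62 and the call was lost (adjusted p = 0.0765), as it was with processed signals (0.79, 0.0688), in a range of 2.39e-07 to 0.0765 over 12 alternatives.

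Array 2 was also the lowest in the median of a list of 10 striatal genes, among them dopamine receptors, the opioid precursor Penk and the signalling protein Ppp1r1b: 8 of the 10 were brighter in Cy5 and 0 in Cy3, with a median log2 ratio of 0.66. Their median was 1.06 on array 1, 0.22 on array 2 and 0.68 on array 3, so that it was highest on array 1, whereas Cdh15 was highest on array 3. A lowest value on array 2 was not particular to striatal genes. The endothelial median was 0.14, 0.08 and 0.19 on arrays 1, 2 and 3, and the microglial median 0.25, 0.09 and 0.28. Medians of Schwann, oligodendrocyte, meningeal and interneuron genes were also lowest on array 2, those of the other marker lists on array 1 or 3. The summed level of the 10 striatal genes was 49441 to 91966 in Cy3 and 102893 to 117278 in Cy5, with array 2 the highest in Cy3, and all 10 were well above background in both channels. Dorsal cortex borders the striatum, and the part of striatal tissue in the Cdh15 difference was not tested. Penk, for example, had ratios of 1.55, 0.46 and 1.22.

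**Figure D2:**
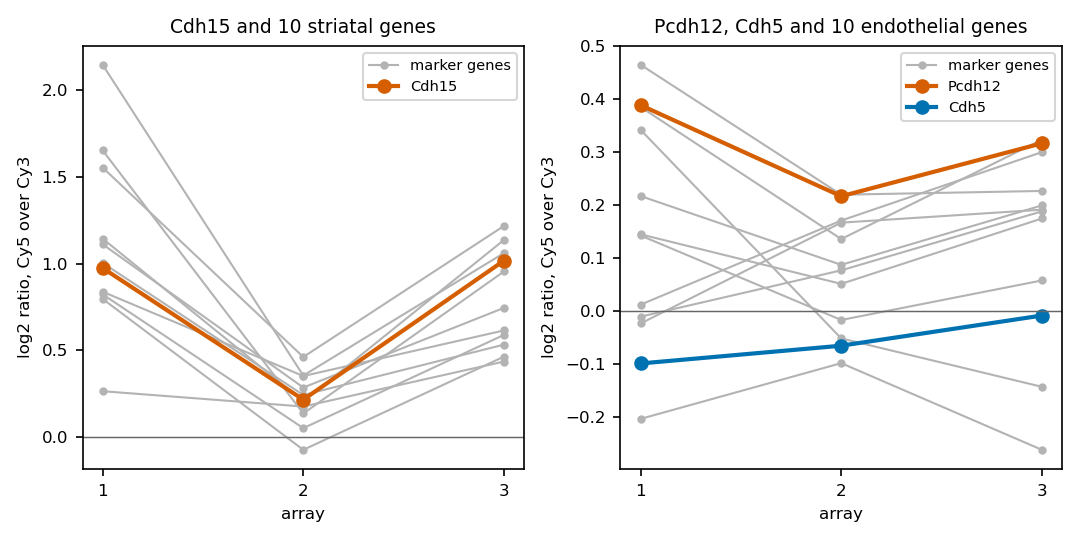
The log2 ratio of Cy5 over Cy3 is plotted for each array (horizontal axis; lines only join the values of a gene), on the left for Cdh15 (orange) with 10 striatal genes (grey), on the right for Pcdh12 (orange) and Cdh5 (blue) with 10 endothelial genes (grey). Cdh15 is low on array 2, at 0.22, as is the striatal median, also 0.22, while Pcdh12 lies above 0 and Cdh5 below 0 on every array.

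The other type I cadherins are epithelial. Cdh1, E-cadherin, had log2 ratios of -0.74, -0.34 and -0.09, with a mean of -0.39 ± 0.33 and an adjusted p of 0.0639. All 3 were negative, but array 1 and array 3 differed by more than the mean itself. Cdh1 passed the threshold without array 2 (0.0278) and without array 3 (0.0292), in a range of 0.0278 to 0.129 over 12 alternatives. Cdh3, P-cadherin, which adjoins Cdh1 on chromosome 8, gave 0.22, 0.27 and -0.06 (adjusted p = 0.262) and stood well above background in Cy3 on just 2 arrays. Of 8 epithelial markers, 6 were tested, and 3 were brighter in Cy5 (Krt18, Krt19 and Cldn4), with a median of 0.25 and 4 above 0. Cldn4 stood well above background on 2 arrays in each channel, and its adjusted p over probes was 0.0510. Cldn7 gave -0.20, -0.25 and -0.07 and did not pass, and its Cy5 signal never stood well above background. Epcam gave -0.02 ± 0.05, with Cy5 well above background on 1 array. The part of epithelial RNA in the Cdh1 and Cdh3 values was not tested.

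Type II cadherins are expressed in combinations that differ between neighbouring neuron groups and cortical layers. Of the 13 in the family, 12 were tested, 2 were brighter in Cy5 (Cdh6 and Cdh9) and 1 in Cy3 (Cdh7), and the median log2 ratio was -0.07. Cdh7, which marks restricted nuclei and layers of the young brain, gave -0.56, -0.38 and -0.54, with a mean of -0.50 ± 0.10, 1.41-fold, and an adjusted p of 0.0101. Its log2 levels were 10.61 to 10.93 in Cy3 and 10.16 to 10.36 in Cy5, with no overlap. Its other probes gave -0.57 ± 0.35 and -0.37 ± 0.11, with adjusted p-values over probes of 0.0273 and 0.0233. All 9 values of the 3 probes were negative. Cdh7 kept its call and direction under all 12 alternatives tried, with adjusted p-values from 0.00132 to 0.0418.

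Cdh6, found in restricted areas and layers of the early postnatal cortex, gave log2 ratios of 0.39, 0.33 and 0.36, with a mean of 0.36 ± 0.03 and an adjusted p of 0.0183. The 3 arrays lay close together. Cdh9, known from hippocampal mossy fibre synapses, gave 0.31, 0.22 and 0.30, with a mean of 0.28 ± 0.05 and an adjusted p of 0.0360. In both genes every Cy5 level lay above every Cy3 level: for Cdh6 the Cy3 levels were 11.51 to 11.58 and the Cy5 levels 11.84 to 11.97, and for Cdh9 the highest Cy3 level was 11.71 and the lowest Cy5 level 11.80. Each has 1 probe. The Cdh6 ratio missed the threshold without array 3 (0.36, adjusted p = 0.0742) and with processed signals (0.34, 0.0593), in a range of 0.0118 to 0.0742. The Cdh9 ratio missed it without any 1 of the arrays (0.26 to 0.31, adjusted p = 0.0524 to 0.155) and with processed signals (0.31, 0.0762), in a range of 0.0207 to 0.155.

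Cdh6 and Cdh9 adjoin each other on chromosome 15 in the RefSeq gene order, followed by Cdh10 and Cdh12. These are also type II cadherins of neurons. Cdh10 gave -0.42, -0.07 and -0.17, with a mean of -0.22 ± 0.18 (adjusted p = 0.112), and Cdh12 -0.25, -0.11 and 0.02, with a mean of -0.11 ± 0.14 (adjusted p = 0.328). The first pair was thus above 0 on all arrays, and Cdh10 below 0 on all arrays. On chromosome 1, Cdh7 is followed by Cdh19, which was too dim to test, and by Dsel, an enzyme of dermatan sulphate synthesis. Dsel gave -0.55, -0.31 and -0.23, with a mean of -0.37 ± 0.17 and an adjusted p of 0.0309, the same direction as Cdh7.

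Among the remaining type II cadherins none passed. Cdh8, known from synapses of cortical and striatal neurons, gave 0.17, 0.20 and 0.10 (mean 0.16 ± 0.05, adjusted p = 0.136), and its second probe gave -0.11 ± 0.18. Cdh11, found in mesenchyme and in neurons, gave -0.51, -0.13 and -0.05 (adjusted p = 0.145), and its second probe 0.05 ± 0.32. Cdh18 gave 0.18, -0.10 and 0.17 by 1 probe and a mean of -0.17 ± 0.19 by the other. In these 3 genes the probes thus had different signs. Cdh20 gave -0.39, -0.17 and 0.08, and Cdh22 -0.06, -0.17 and -0.01. Cdh24 gave 0.18, 0.41 and 0.16 (mean 0.25 ± 0.14, adjusted p = 0.0657), with each channel well above background on 2 arrays. It passed under 1 of its 11 alternatives, with intensity bins centred after loess (0.0287; range 0.0287 to 0.344).

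**Figure D3:**
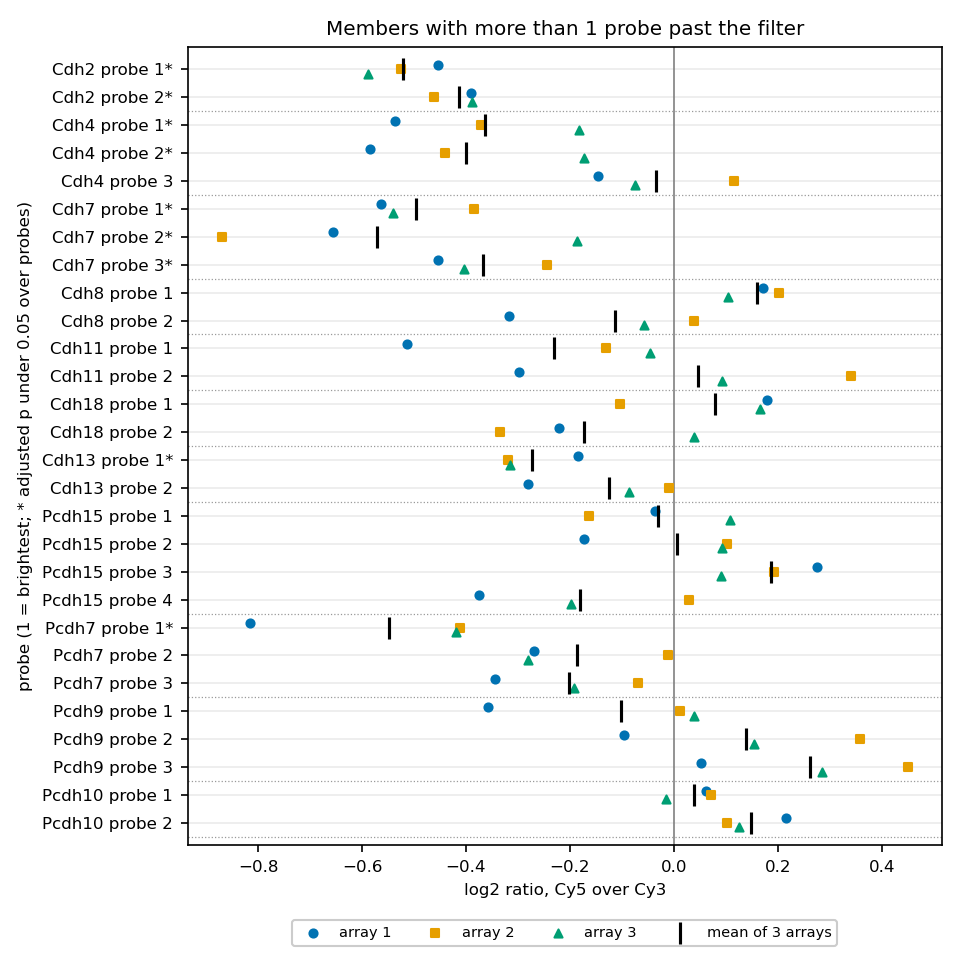
The log2 ratio of Cy5 over Cy3 is plotted on the horizontal axis for each probe of the 11 members with more than 1 probe past the filter, 1 row a probe and the brightest first; symbols are the 3 arrays, black ticks their mean, and an asterisk marks an adjusted p under 0.05 over all probes. All probes of Cdh2 and Cdh7 lie left of 0, while those of Cdh8, Cdh11, Cdh18, Pcdh9 and Pcdh15 lie on both sides.

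Cdh5, VE-cadherin, holds endothelial cells together, and Pcdh12 is another endothelial adhesion gene. Cdh5 did not pass: its log2 ratios were -0.10, -0.07 and -0.01, with a mean of -0.06 ± 0.05 and an adjusted p of 0.567. Pcdh12 gave 0.39, 0.22 and 0.32, with a mean of 0.31 ± 0.09, 1.24-fold, and an adjusted p of 0.0320, with Cy3 levels of 9.33 to 9.49 and Cy5 levels of 9.65 to 9.80. Of 10 endothelial markers 2 were brighter in Cy5 (Cldn5, 0.30, and Tie1, 0.28), none was brighter in Cy3, and 9 of the 10 were above 0. Their median was 0.12, and their summed level was 49549 to 50575 in Cy3 and 56547 to 63110 in Cy5. The part of vessel number in the Pcdh12 value was not tested. The Pcdh12 call was lost without array 1 (0.27, adjusted p = 0.0518), without array 3 (0.30, 0.121) and with processed signals (0.30, 0.107), in a range of 0.0179 to 0.121 over 12 alternatives.

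Cdh13, T-cadherin, has no cytoplasmic tail and is held in the membrane by a GPI anchor. It gave log2 ratios of -0.19, -0.32 and -0.32, with a mean of -0.27 ± 0.08, 1.21-fold, and an adjusted p of 0.0409. The Cy3 levels (14.63 to 14.74) lay above the Cy5 levels (14.31 to 14.50). A second, dim probe gave -0.13 ± 0.14, and its Cy5 signal never stood well above background. The Cdh13 call stood under 6 of 12 alternatives, the fewest of the 11. It was lost with processed signals (-0.23, adjusted p = 0.130), intensity bins centred (-0.21, 0.0848), the mean of its probes (-0.20, 0.0723), without array 2 (-0.25, 0.153) and without array 3 (-0.25, 0.178), and it turned to 0.014 (0.898) with median centring, in a range of 0.0324 to 0.898.

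Of the 33 members, 4 were at background. Cdh16 of the kidney, Cdh17 of liver and intestine, Cdh19 of Schwann cells and Cdh23 of hair cells were not well above background in either channel on any array and were not tested. Pcdh15, the partner of Cdh23 in the tip links of hair cells, was well above background with its brightest probe and gave -0.04, -0.16 and 0.11 (adjusted p = 0.801). Of its 7 probes 4 passed the filter, with means from -0.18 to 0.19, of which none passed the threshold over probes.

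The delta-2 protocadherins act in axon growth and recruit actin regulators. All 5 were tested, 2 were brighter in Cy3 (Pcdh8 and Pcdh19), none in Cy5, and their median log2 ratio was -0.24. Pcdh8, also called arcadlin, is induced by neuronal activity and draws N-cadherin away from synapses. Its log2 intensity was 13.82, 13.79 and 13.84 in Cy3 and 13.21, 13.34 and 13.27 in Cy5, so that the channels were well apart. The log2 ratios were -0.61, -0.45 and -0.57, with a mean of -0.54 ± 0.08, 1.46-fold, and an adjusted p of 0.00731, the smallest in the family. Its call and direction held under all 12 alternatives, with adjusted p-values from 0.000675 to 0.0414. Olfm4, a secreted glycoprotein whose gene follows Pcdh8 and precedes Pcdh17 on chromosome 14, gave -1.18, -0.65 and -0.90, with a mean of -0.91 ± 0.27 and an adjusted p of 0.00506.

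Pcdh19, mutated in an inherited epilepsy, binds N-cadherin in the same membrane. It gave -0.59, -0.31 and -0.39, with a mean of -0.43 ± 0.15, 1.35-fold, and an adjusted p of 0.0180. Its Cy3 levels were 14.60 to 14.71 and its Cy5 levels 14.11 to 14.29. The call was lost with median centring (-0.16, adjusted p = 0.303) and with processed signals (-0.33, 0.0762), in a range of 0.00450 to 0.303 over 12 alternatives.

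Pcdh17, which sorts synapses of the corticostriatal pathway, gave -0.60, -0.20 and 0.08, so that its arrays differed in sign (mean -0.24 ± 0.34, adjusted p = 0.195). Pcdh18 gave -0.19, -0.31 and -0.07 (mean -0.19 ± 0.12, adjusted p = 0.113). Pcdh10, needed for the growth of striatal and thalamocortical axons, gave 0.06, 0.07 and -0.02 (mean 0.04 ± 0.05, adjusted p = 0.705), and its second probe 0.15 ± 0.06. These 3 genes were not distinguished from 0 here.

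The delta-1 protocadherins share a cytoplasmic motif that binds protein phosphatase. Pcdh7, NF-protocadherin, gave -0.82, -0.41 and -0.42, with a mean of -0.55 ± 0.23, 1.46-fold, and an adjusted p of 0.0160. Its Cy3 levels were 13.25, 13.28 and 13.21 and its Cy5 levels 12.44, 12.87 and 12.79. The Cy3 levels were close together, and the Cy5 level was lowest on array 1. Its other probes gave -0.19 ± 0.15 and -0.20 ± 0.14, with adjusted p-values over probes of 0.142 and 0.114. In the authors' deposited table the brightest probe is described by transcript variant 1, as is the next, and the dimmest by variant 2. The call was lost with median centring (-0.42, adjusted p = 0.0574) and with processed signals (-0.57, 0.0560), in a range of 0.000625 to 0.0574, and the mean of the 3 probes was -0.31.

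Pcdh1 gave 0.24, 0.16 and 0.16 (mean 0.19 ± 0.05, adjusted p = 0.0911). Pcdh9 gave -0.36, 0.01 and 0.04 by its brightest probe (adjusted p = 0.462), and means of 0.14 and 0.26 by the others. Pcdh20, which belongs to neither group, was the closest to 0, at -0.01 ± 0.01. In all, 10 of the 18 members that did not pass had the same sign on the 3 arrays, and 3 of them (Cdh1, Cdh24 and Pcdh1) had an adjusted p under 0.10.

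**Figure D4:**
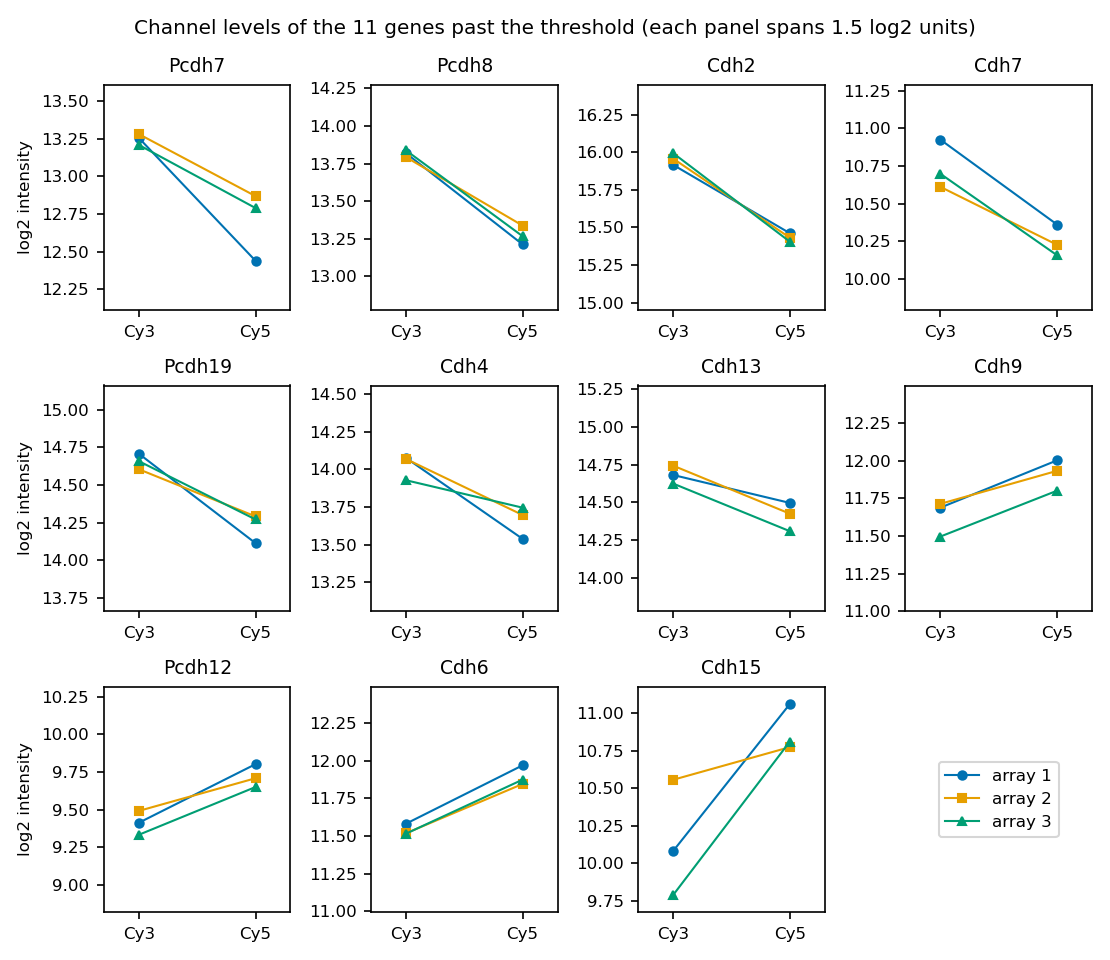
Log2 intensity after loess and between-array normalization is plotted for the 11 genes past the threshold, Cy3 (labelled wild type) on the left and Cy5 (labelled Brpf1-deficient) on the right of each panel, with 1 line an array; every panel spans 1.5 log2 units, so slopes can be compared. For Pcdh8 the Cy3 points nearly coincide at 13.79 to 13.84, while for Cdh15 they spread from 9.79 to 10.56.

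The other genes of cadherin adhesion were taken from lists of 48 partners, of which 42 were tested: 5 were brighter in Cy3 and 3 in Cy5, 19.0% in all against 17.1% of all genes, and their median was -0.0096. As a whole these partners thus stood near the background. Of the 12 catenins and junction linkers tested, 3 were brighter in Cy3 and the other 9 did not pass. Ctnnd2, the neuronal delta-catenin of the p120 family, gave -0.37, -0.41 and -0.50, with a mean of -0.43 ± 0.06 and an adjusted p of 0.0128, and its second probe gave -0.42. Ctnna2, the neuronal alpha-catenin that ties cadherins to actin, gave -0.44, -0.26 and -0.30, with a mean of -0.33 ± 0.09 (adjusted p = 0.0273), and its second probe -0.21. Afdn, afadin, which links nectins to actin, gave -0.77, -0.17 and -0.39, with a mean of -0.44 ± 0.31 (adjusted p = 0.0418). The forms found in most tissues did not pass: Ctnnb1, beta-catenin, had a mean of -0.19 ± 0.22, Ctnnd1, p120-catenin, of 0.11 ± 0.41, Ctnna1, alpha-E-catenin, of 0.04 ± 0.17, and Jup, plakoglobin, of 0.17 ± 0.27. Whether the neuronal forms differ from the others was not tested.

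Nectins are immunoglobulin-like adhesion proteins that start adherens junctions. Of 3 tested, Nectin3 was brighter in Cy5 (0.29 ± 0.14, adjusted p = 0.0447), with a second probe at 0.01. Among 10 Fat, Dachsous and flamingo genes of tissue polarity, Fat4 was brighter in Cy3 (-0.33 ± 0.11, adjusted p = 0.0309) and Fat3 in Cy5 (0.29 ± 0.05, 0.0321). Among 6 desmosomal genes tested, Dsc2 was brighter in Cy3 (-0.35 ± 0.14, 0.0312), with Cy5 well above background on 1 array. None of 3 calsyntenins passed. Of 8 genes that cleave or traffic cadherins, Arf6, a GTPase of endosomes, was brighter in Cy5 (0.27 ± 0.11, 0.0480), and Adam10, the protease that sheds N-cadherin, was negative on all arrays (-0.24 ± 0.07, 0.0533).

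**Figure D5:**
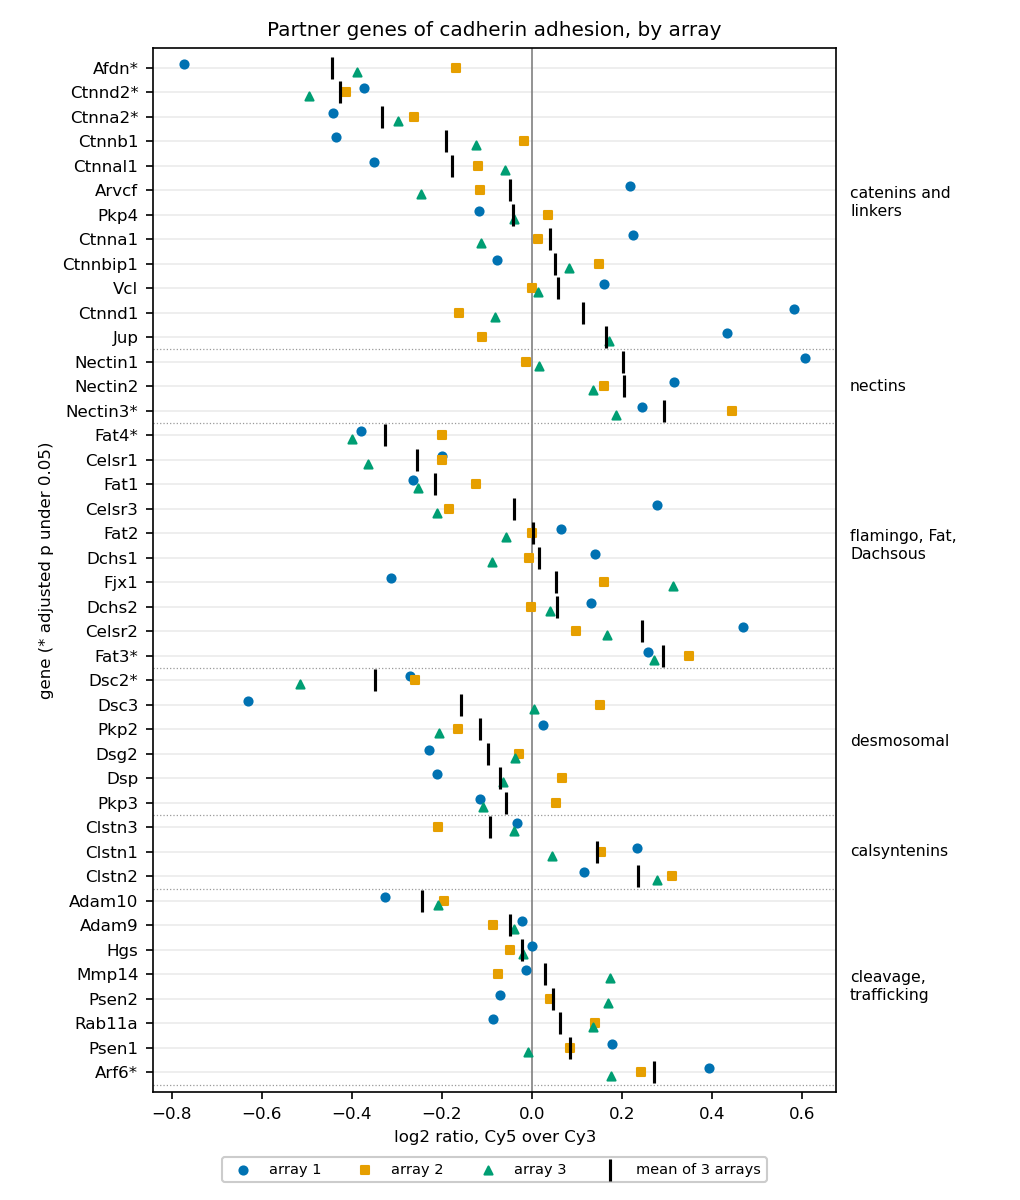
The log2 ratio of Cy5 over Cy3 is plotted on the horizontal axis for the 42 partner genes tested, grouped by role, with symbols for the 3 arrays, black ticks for their mean and asterisks for an adjusted p under 0.05. In the catenin group Afdn, Ctnnd2 and Ctnna2 lie left of 0 on every array, and the other 9 did not pass.

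Because cadherins differ between cell types, marker lists were counted beside them. All 9 markers of cortical excitatory neurons stood well above background in Cy3 on every array, and 3 were brighter in Cy5 (Slc17a7, Bcl11b and Tbr1, 0.33 to 0.39) and 1 in Cy3 (Neurod6, -0.38 ± 0.23). Emx1, a defining gene of dorsal cortex, gave 0.65, -2.72 and -2.65 and did not pass (adjusted p = 0.103). Its log2 levels on arrays 1, 2 and 3 were 10.06, 9.96 and 9.98 in Cy3 and 10.71, 7.23 and 7.33 in Cy5. In Cy5 it stood well above background on 2 arrays, whereas the other 8 markers did so in both channels on every array. Of 9 thalamic genes 3 were brighter in Cy3 (Slc17a6, Ntng1 and Calb2) and 1 in Cy5 (Prkcd). Of 10 interneuron genes 4 were brighter in Cy3 (Dlx1, Maf, Erbb4 and Lhx6) and 1 in Cy5 (Sst, 0.41 ± 0.09), with a median of -0.21. The other 5 did not pass, and 3 of the 10 were above 0. Their summed level was 105004 to 108752 in Cy3 and 95048 to 104352 in Cy5. Second probes of Maf and Erbb4 gave -0.21 and -0.12, and the other Lhx6 probes -0.03 and -0.22. The thalamic sums were 43546 to 49945 in Cy3 and 31190 to 32163 in Cy5. Slc17a6 was the brightest gene in these sums, with mean log2 levels of 14.75 in Cy3 and 13.91 in Cy5. Over the 9 thalamic genes the median log2 ratio was -0.09, with 4 above 0 and 5 not called. Microglial genes (3 of 9) and erythroid genes (2 of 5 tested) were called only in Cy5. Of 4 tested genes of Schwann and olfactory ensheathing cells 2 were brighter in Cy5 (Npy and Frzb), while Foxd3, a gene of their precursors, was too dim to test, as was Cdh19. None of 10 meningeal and none of 10 oligodendrocyte genes passed, with medians of -0.12 and 0.11. Of 9 choroid plexus genes 1 was brighter in Cy3 (Prlr, second probe -0.03), and Ttr gave -2.60, 1.14 and 0.10. Their median was 0.09, with 5 above 0. The choroid plexus sums on arrays 1, 2 and 3 were 6510, 69978 and 75974 in Cy5. In Cy3 they were 19885, 33949 and 71120. The part of these cell types in the cadherin differences was not tested.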

How the data were processed

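The deposited scanner files hold the intensity of each spot in Cy3 and Cy5, per the file headers output of Agilent Feature Extraction 10.7.3.1: medians of spot and local background, not normalized. No mean was used. Processed intensity, background-subtracted and dye-normalized by the scanner software per the file headers, served as an alternative. The deposited log10 ratio is that of processed red over green, and was used as a check only. The deposited flags mark spots well above background, outliers and saturation. The authors also deposited a table with log2 fold changes, average log2 values, t and log-odds scores, p-values and adjusted p-values, made with limma per the submitters' processing notes; how else it was made is not given in the sources used here. All 3 arrays lay on 1 slide.

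Medians were background-corrected (normexp, offset 50), loess-normalized within arrays (control spots weighted 0, outlier spots removed) in limma 3.58.1 (R 4.3.3). Spots were averaged by probe. A probe was kept if well above background in a channel on at least 2 arrays, and a gene was represented by its brightest probe. Log2 ratios were tested against 0 (lmFit and eBayes, two-sided); p-values were Benjamini-Hochberg adjusted over all 23232 genes, and 0.05 was the threshold. Channel levels follow loess and between-array (Aquantile) normalization. The fit was tested on simulated data.

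Of 55681 probes, 27656 were named by RefSeq accession (assembly GRCm38.p6), 4082 by the authors' table, which ends at a p-value of 0.458 so that this naming depends in part on the outcome, and 23943 kept a systematic name. The RefSeq table gave names and gene order only. All 33 members were named in the text, as were Brpf1 and called neighbours of members. Called genes were named for each list that held any, except the microglial and erythroid lists. Of the 8 called striatal genes only Penk and Ppp1r1b were named. Ppp1r1b and Lhx6 lie outside the 4 smallest adjusted p of their lists. Ctnnb1, Ctnnd1, Ctnna1, Jup, Adam10, Epcam, Cldn7, Emx1 and Ttr were added after their values were seen. Members and lists (catenins, nectins, Fat and Dachsous, desmosomes, calsyntenins, cleavage; excitatory, endothelial, meningeal, choroid plexus, epithelial, oligodendrocyte, Schwann, striatal, thalamic, interneuron, microglial and erythroid) were chosen with earlier results of these data known. With 3 arrays, their number limits the precision.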

Additional observations from a re-analysis of the deposited data

How the results depend on the processing

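Under 12 alternatives, Cdh7 and Pcdh8 kept their direction and their call in each, and Cdh2 in 11. With the scanner's processed signals 0 members were brighter in Cy5 and 3 in Cy3 (Cdh2, Cdh7 and Pcdh8), against 4 and 7, and over all genes 578 and 530 were called, against 1852 and 2130. With median centring in place of loess, 4 members were brighter in Cy5 and 2 in Cy3 (Cdh7 and Pcdh8), and 4466 and 891 of all genes; 83.4% of calls then lay in Cy5, against 46.5%, the median over all genes was 0.087 and that over members 0.014, and Cdh13 changed sign to 0.014. Leaving out 1 array, members brighter in Cy5 numbered 1 to 3 and those in Cy3 6 to 7, and all genes 761 to 1619 and 1097 to 2180; the lowest of these came without array 3 for all genes, and 1 member was brighter in Cy5 without array 1 and without array 3. With the mean of a gene's probes 5 members were brighter in Cy3, and with intensity bins centred 5 were brighter in Cy5 and 6 in Cy3. The cause was not tested. Counts were within 1.5 times of those reported with no background subtraction, an offset of 16, no filter, the stricter filter and probes tested singly. Each array is itself a pair of pups, so the log2 ratio tested against 0 is already the paired comparison, and the 3 arrays form 1 group. Genes dim in both channels have no usable ratio.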

Other observations

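Of the 4 members at background here, Cdh17, Cdh19 and Cdh23 have values in the authors' deposited table, where Cdh19 has a log2 fold change of 0.92 (p = 0.00888, adjusted p = 0.240) at an average log2 value of 2.92, Cdh23 of 0.69 at 2.46, and the Cdh17 probes of 0.40 and 0.28. By the flags of the scanner files none of these probes was well above background in either channel on any array, and here Cdh19 gave -0.20, -0.55 and -0.07 and Cdh23 gave 0.02, -0.08 and -0.22. The sign is that of the table, opposite to the one used here.

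Over the 29 members tested, 13 had the lowest of their 3 log2 ratios on array 1, 10 on array 2 and 6 on array 3, and 19, 19 and 16 members were below 0 on them. Pcdh17, Cdh20 and Cdh1 had their lowest value on array 1 and their highest on array 3. Ankrd11, which follows Cdh15 on chromosome 8, gave -0.24 ± 0.02 (limma adjusted p = 0.0468), the direction opposite to Cdh15, with another probe at -0.01.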
